A study of Mus musculus with 3 samples.

Results

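Dividing granule-stage neutrophils are young neutrophils that fill with secondary granule proteins while they still divide. They were found in a study of CD45+ cells, which carry the common leukocyte surface protein, sorted alive from the livers of mice at postnatal day 0. The liver is a site of blood formation at birth. Members were chosen by measured values, per barcode (a droplet tag that stands for 1 cell) from CPM, a gene's share of the barcode's UMIs, the molecule counts of droplet sequencing, scaled to a total of 1000000. Camp, Ngp and Ltf together had to reach 20000 CPM, Elane and Prtn3 together had to stay below 5000, Mmp8 and Mmp9 below 4000, and Mki67 and Top2a together had to reach 400. All of these genes are therefore part of the selection and not findings. This rule took 5758 of 25845 barcodes: 1793 of 9600 in the library labelled WT (pex2+/+), 1934 of 8000 in the library labelled Het (pex2-/+) and 2031 of 8245 in the KO library (pex2-/-). Values of the 3 libraries are given in this order throughout. Pex2 encodes a peroxisomal membrane protein of the machinery that imports enzymes into peroxisomes, and its homozygous loss is used as a model of Zellweger disease. Each genotype had 1 library. How many animals were pooled in it is not stated in the labels, and they name no other allele or agent. No difference between libraries was therefore tested, and every interval below covers counting error only.

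In neutrophil development, promyelocytes make primary granules with proteases such as elastase (Elane) and proteinase 3 (Prtn3). Myelocytes then switch to secondary granules, with cathelicidin (Camp), the cystatin-like protein Ngp, lactoferrin (Ltf) and the iron-siderophore binder Lcn2, and can still divide. After the last division, cells turn on late genes such as Mmp8, of a collagenase, and Mmp9, of gelatinase granules. The stage described here is the dividing middle of this path. C/EBP factors bind promoters of secondary granule genes, and many genes of mitosis carry CCAAT boxes (bound by NF-Y) and CHR elements (bound by the DREAM and MuvB complexes).

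The promoter letters of the genes that define this stage, and of one that differed between libraries, show both kinds of element. Each line below holds the 250 bases before the RefSeq start of the gene, 5′ to 3′ on the gene's strand, in GRCm38.p6. Capitals mark, on either strand, TTGCNNAA (a core of the C/EBP motif) in Fcnb and Lcn2, and TTTGAA (CHR) or CCAAT in Top2a.
Fcnb (chr2:28084879-28085128, strand minus): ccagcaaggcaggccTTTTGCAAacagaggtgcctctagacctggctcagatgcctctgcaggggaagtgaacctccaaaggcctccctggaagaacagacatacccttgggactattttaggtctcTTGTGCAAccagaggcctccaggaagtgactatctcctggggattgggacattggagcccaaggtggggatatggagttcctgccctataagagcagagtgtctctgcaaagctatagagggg
Lcn2 (chr2:32387740-32387989, strand minus): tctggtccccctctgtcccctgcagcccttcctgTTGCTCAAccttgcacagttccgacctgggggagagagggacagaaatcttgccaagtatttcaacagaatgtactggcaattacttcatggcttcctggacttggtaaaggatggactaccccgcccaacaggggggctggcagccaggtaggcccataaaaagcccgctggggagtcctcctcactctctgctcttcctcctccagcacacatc
Top2a (chr11:99024190-99024439, strand minus): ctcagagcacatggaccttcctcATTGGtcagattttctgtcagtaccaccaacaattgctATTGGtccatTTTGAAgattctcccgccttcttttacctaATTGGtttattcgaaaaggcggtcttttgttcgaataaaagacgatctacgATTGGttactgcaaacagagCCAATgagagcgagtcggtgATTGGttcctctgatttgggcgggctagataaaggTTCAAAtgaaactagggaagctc
Fcnb, the gene of ficolin B, held 2 matches to TTGCNNAA, 235 and 123 bases before its start, and Lcn2 held 1, 216 bases before. Ngp also held 2 and Ltf 1, while these letters were not found in the windows of Camp and Chil3. TTGCNNAA was present in 9.56% of 32851 promoter windows of this length, so single matches are common. Top2a held 6 CCAAT and 2 CHR matches, and Mki67 held 3 and 2. Of 44 mitosis genes with a window, 31 (70.5%) held CCAAT and 16 (36.4%) held TTTGAA, against 37.5% and 18.3% of all genes. These letters were not particular to that list: of 10 secondary granule genes, 6 (60%) held CCAAT and 3 (30%) held TTTGAA. TTGCNNAA was also held by 3 (30%) of the 10, against 10.8% of all genes. Of 33 DNA replication genes, 19 (57.6%) held CCAAT and 5 (15.2%) held TTTGAA. Such matches are descriptions of letters and not of binding.

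The 3 libraries differed in depth, and 1 label sat against its gene. Members had a median of 13657, 23541 and 33029 UMIs and 3429, 4406.5 and 4926 genes, while all barcodes had 8218.5, 15558.5 and 19348 UMIs. Pex2 (chr3:5560188-5576239 in GRCm38) was at 22.7, 48 and 0 CPM in members, from 591, 2276 and 0 UMIs. If a count of 0 is taken to allow 3 UMIs over the members' total, the KO level is up to 0.0428 CPM. At that limit Pex2 was 531-fold and 1121-fold higher in the other libraries, leaving out their own counting error. The 95% intervals, which include it, reach KO levels of 0.00232 times that labelled WT and 0.0011 times that labelled Het. Its level in the library labelled Het was 2.11 (1.93 to 2.32) times that labelled WT, the opposite of the order that the labels give, so both are named by their label here. Members of the library labelled WT held 1321 UMIs of the Y-linked gene Ddx3y, and those of the other libraries held 0, so sex cannot be told apart from the label WT. Fcnb, a marker given for the stage that the rule did not use, had a UMI in 97.9%, 95.4% and 86.2% of the members thinned to 5000 UMIs. In thinned B-lineage reference barcodes these shares were 13.7%, 8.29% and 3.73%. Fcnb was not particular to the stage. It had a UMI in 94.2%, 93.1% and 72.3% of non-dividing granule-stage barcodes and in 57.1%, 47.7% and 36.4% of monocyte reference barcodes. Each library carried 1 probe barcode, a part of the full barcode, and no full barcode was shared between libraries. That absence follows from the probe barcodes and does not bear on how separate the libraries were. Without the probe part, KO shared 1184 barcodes with the library labelled WT and 961 with that labelled Het. The libraries labelled Het and WT shared 1147. Scrublet, a caller of 2 cells in 1 droplet, marked 6.47%, 5.02% and 5.91% of the members.

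Members took a larger share of the granule-stage barcodes in the KO library. They made up 18.7% (17.9 to 19.5, exact 95% interval), 24.2% (23.2 to 25.1) and 24.6% (23.7 to 25.6) of all barcodes. Among granule-stage barcodes, which meet the rule whatever their Mki67 and Top2a, they made up 53.7% (51.9 to 55.4), 61.3% (59.5 to 63) and 80.9% (79.3 to 82.4). The KO share was 1.51 times (1.41 to 1.61) that labelled WT and 1.32 times (1.24 to 1.41) that labelled Het, and the share labelled Het was 1.14 times that labelled WT. Non-dividing granule-stage barcodes numbered 1549, 1223 and 480. Every share of this kind reads the rule, which used these genes. When every barcode was thinned to 5000 UMIs, the shares of granule-stage barcodes were 56.7%, 63.1% and 80.4%, and those of all barcodes were 23.9%, 27% and 26.6%. Among barcodes of 10000 to 30000 UMIs the order changed, to 70.6%, 56.6% and 63.3% of granule-stage barcodes and 37.1%, 28.9% and 17.3% of all barcodes. That window was chosen after seeing the data and takes different parts of the 3 depth ranges. The limit on Mmp8 and Mmp9 also sets these shares, and Mmp8 was itself higher in the KO library, as given below. Without that limit, a setting also added after seeing the data, members made up 33.5%, 45.6% and 53.5%. The KO share was then 1.6 times that labelled WT and 1.18 times that labelled Het.

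The same order was seen at the neighbouring stages of the lineage. In promyelocyte-like barcodes, with at least 5000 CPM of Elane and Prtn3, the share with at least 400 CPM of Mki67 and Top2a was 45.1%, 54.8% and 82.6%. Among later neutrophils, past the limit of Mmp8 and Mmp9, it was 3.2%, 9.17% and 23.3%. Thinned to 5000 UMIs, these shares were 53.3%, 59.7% and 81.3% in the former and 4.37%, 10.8% and 24.9% in the latter. Monocyte reference barcodes had 45.1%, 40% and 45.4%, without that order. In B-lineage reference barcodes the KO share was the lowest, at 29.7%, 39.6% and 15.5%. Thinned, the monocyte shares were 49.9%, 45.2% and 49.2% and the B-lineage shares 77.3%, 51.1% and 21.2%, from 422, 761 and 533 barcodes deep enough, so the order of the libraries labelled WT and Het turned in the latter. The intervals of the KO library and of the other libraries were apart in all 3 neutrophil stages, but they cover counting error only. Genes of the rule cut both the stages and these shares, so the stages are not independent of each other.

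**Figure D1:**
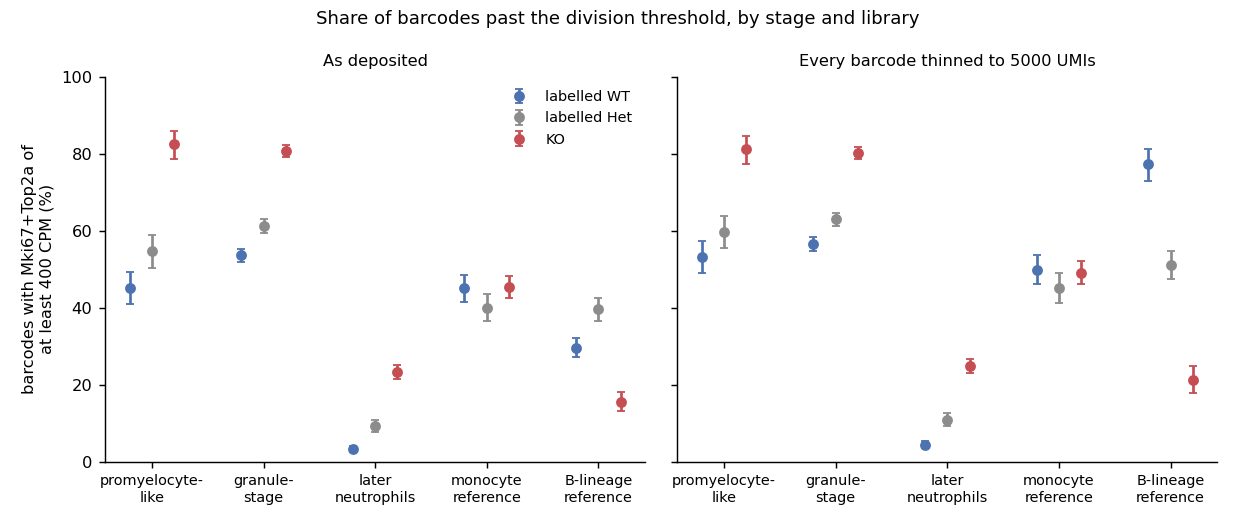
Share of barcodes (%) with at least 400 CPM of Mki67 and Top2a, by stage, as deposited (left) and with every barcode thinned to 5000 UMIs (right); points are libraries and bars are exact 95% intervals. The KO points lie above the other libraries in the 3 neutrophil stages (82.6%, 80.9% and 23.3% as deposited). In the monocyte reference the KO point is close to that labelled WT (45.4% and 45.1% as deposited), and in the B-lineage reference it is lowest.

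The threshold cut through a continuous range. Just inside it, at 400 to 500 CPM of Mki67 and Top2a, lay 106, 92 and 66 barcodes, and just outside, at 300 to 400 CPM, lay 124, 118 and 33. DNA replication genes, which the rule did not use, summed to 6665, 4725 and 5558 CPM just inside and to 5296, 4994 and 4347 CPM just outside. The mitosis genes without Mki67 and Top2a summed to 2437, 2245 and 1890 CPM just inside and reached 9925, 9420 and 8818 CPM above 1000 CPM of the rule genes. Replication genes were thus already high on both sides of the threshold, while mitosis genes were highest far above it. Some barcodes below the threshold looked like replicating cells: 12% (10.4 to 13.7), 14.7% (12.8 to 16.8) and 12.3% (9.49 to 15.6) of the non-dividing barcodes had replication genes at or above the median of the members, 4235 CPM. The other limits were also crossed gradually. With Mmp8 and Mmp9 at 3000 to 4000 CPM lay 59, 68 and 172 members, and at 4000 to 5000 CPM lay 41, 48 and 147 dividing barcodes that the rule left out. For Elane and Prtn3, 11, 21 and 30 members lay at 4000 to 5000 CPM and 9, 18 and 22 barcodes at 5000 to 6000 CPM.

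**Figure D2:**
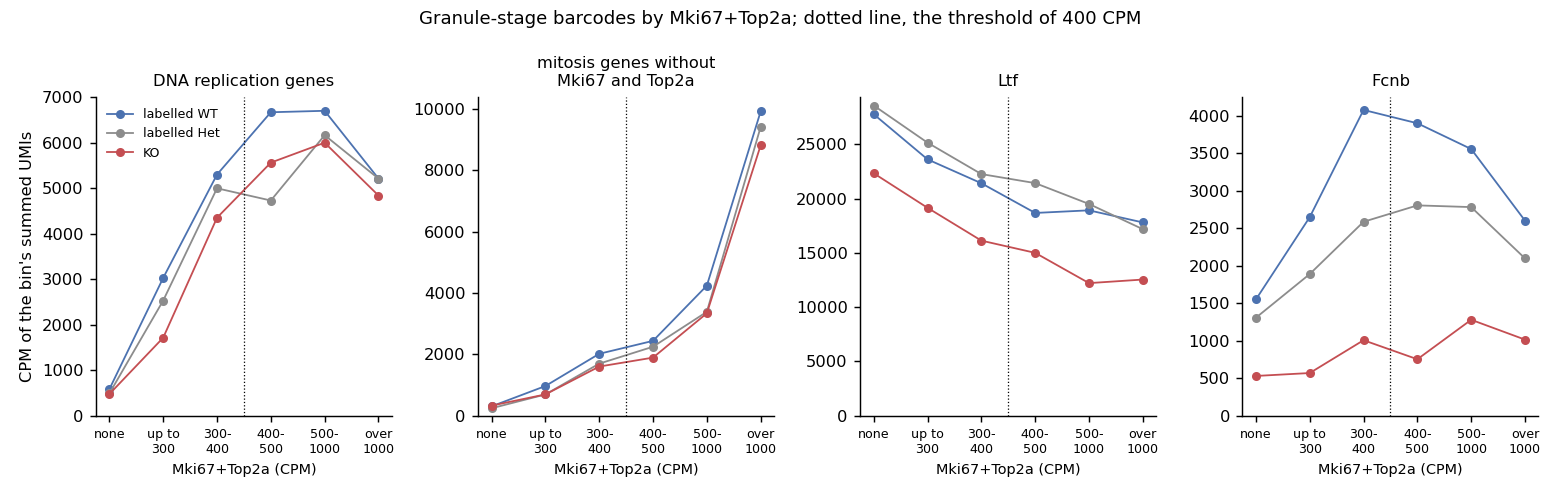
Summed CPM of DNA replication genes, mitosis genes without Mki67 and Top2a, Ltf and Fcnb in granule-stage barcodes, binned by Mki67 plus Top2a (CPM); each line is 1 library and the dotted line is the threshold of 400 CPM. Replication genes reach 5296, 4994 and 4347 CPM just below the threshold, and Fcnb of the KO library lies below the other libraries in every bin.

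Members differed among themselves along the cell cycle and along maturation. Thinned to 5000 UMIs, replication genes had a median of 4200, 4200 and 4000 CPM per barcode, with 10th percentiles of 800, 400 and 600 and 90th percentiles of 11560, 11000 and 10400 CPM. Mitosis genes without Mki67 and Top2a had medians of 8800, 8200 and 7600 CPM. Replication and mitosis genes ran against each other across barcodes of 1 library, with Spearman's rho of -0.28, -0.29 and -0.40 over 1733, 1907 and 2021 barcodes. Their values share a barcode total, and no test is given. Members with more primary granule RNA had more Fcnb (rho 0.36, 0.41 and 0.49) and less Ltf (rho -0.31, -0.28 and -0.44). Late neutrophil genes, such as those of gelatinase granules, were lower where replication genes were high (rho -0.31, -0.38 and -0.40).

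Against non-dividing granule-stage barcodes, members had more RNA of division in all 3 libraries. The rule chose this contrast by Mki67 and Top2a, so it is a description. Of 7073 genes with a mean of at least 10 CPM, 1110 (15.7%) were at least 1.5-fold higher in members in every library and 245 (3.46%) were at least 1.5-fold lower. All 49 mitosis genes, all 23 replication histones and chromatin genes, and 33 of 41 DNA replication genes were among the higher ones. Kif11, a motor of the spindle, was at 177, 185 and 188 CPM in members and 3.01, 3.03 and 1.63 CPM in non-dividing barcodes. The linker histone gene Hist1h1b was at 2279, 1574 and 2005 CPM against 59.2, 26.4 and 25.8 CPM, and Esco2, a cohesin acetyltransferase, was at 106, 102 and 107 CPM against 2.6, 1.41 and 0.633 CPM. Of 16 late neutrophil genes, 6 were among the lower ones. Of all the lower genes, Adam8, a surface protease, was at 42.5, 71.9 and 96 CPM against 157, 193 and 248 CPM, and S100a6, a calcium-binding protein, was at 47.3, 36 and 73.7 CPM against 133, 106 and 239 CPM. Ltf, which the rule used, was at 18036, 17687 and 12539 CPM against 25580, 26246 and 19856 CPM, short of 1.5-fold in the libraries labelled WT and Het. All 3 libraries shared these orders.

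Granule proteins of the members differed between libraries gene by gene and not as 1 group. In the comparison of libraries a gene is called when its KO level is at least 1.5-fold above, or below, both other libraries and both 95% intervals exclude 1. Of 7166 genes with a mean of at least 10 CPM, 183 (2.55%) were called above and 504 (7.03%) below. Of 12 secondary granule genes 1 was called above and none below, with median log2 ratios of 0.19 and -0.03 to the libraries labelled WT and Het, against -0.07 and -0.06 over all genes. Camp, which the rule used, was at 34799, 26250 and 19833 CPM, highest in the library labelled WT and lowest in the KO library. Ngp was at 49327, 52220 and 51639 CPM, level across them, and Ltf was at 18036, 17687 and 12539 CPM, lower in the KO library. Lcn2 was at 11668, 17177 and 23555 CPM and Chil3, a chitinase-like lectin, was at 8028, 12232 and 23817 CPM. The KO level was 2.97 (2.95 to 2.98) times that labelled WT and 1.95 (1.94 to 1.95) times that labelled Het, and it was the called gene of the list. The library labelled Het lay between the others for Lcn2 and Chil3, so these genes also differed between the libraries other than KO. It did so for Camp too, which like Ngp and Ltf is a gene of the rule and so not a finding. By the same fold, 251 of 7166 genes (3.5%) were higher in the library labelled Het and 204 (2.85%) lower, compared with the library labelled WT.

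Single members showed the spread behind these sums. Thinned to 5000 UMIs, Chil3 had medians of 7600, 11800 and 24200 CPM per barcode, and the 10th percentile of the KO library, 11800 CPM, reached the median labelled Het. Fcnb, made mainly before and at the start of this stage, had medians of 2200, 1600 and 800 CPM. Summed over members Fcnb (chr2:28076378-28084885) was at 2836, 2229 and 1052 CPM. The KO level was 0.371 (0.367 to 0.375) times that labelled WT and 0.472 (0.467 to 0.476) times that labelled Het. Both Fcnb and Lcn2 hold the C/EBP letters printed above, and they lay on opposite sides in the KO library, Lcn2 without being called. A role of these letters was not tested. Non-dividing barcodes had 2207, 1723 and 590 CPM of Fcnb and promyelocyte-like barcodes 5978, 4773 and 1698 CPM, with the KO library lowest at each stage. In B-lineage reference barcodes, where RNA of granule genes is taken as free RNA, Camp was at 859, 290 and 204 CPM, Chil3 at 105, 108 and 253 CPM and Fcnb at 43.7, 18.3 and 8.59 CPM, far below the members. The order of Chil3 was not particular to members. Promyelocyte-like barcodes had 1350, 2431 and 8898 CPM of it and monocyte reference barcodes 529, 1521 and 7422 CPM.

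**Figure D3:**
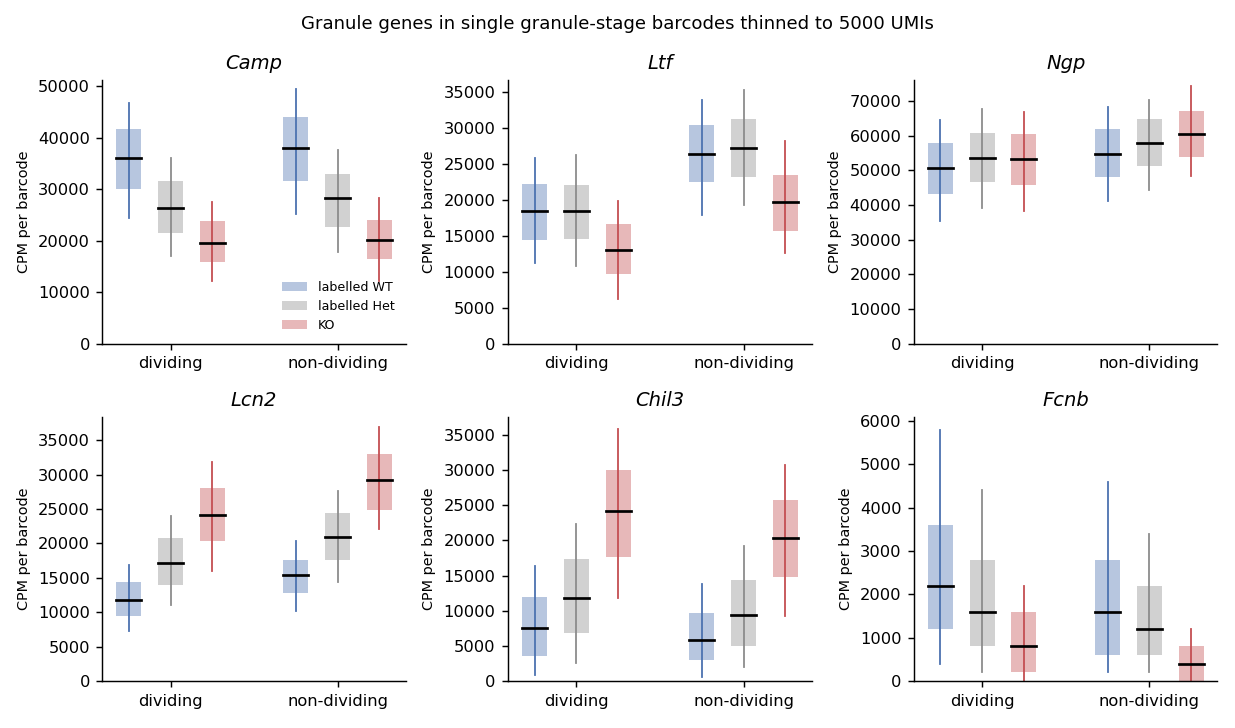
CPM per barcode of Camp, Ltf, Ngp, Lcn2, Chil3 and Fcnb in dividing and non-dividing granule-stage barcodes thinned to 5000 UMIs; lines span the 10th to 90th percentile, boxes the quartiles, and black bars the median of each library. Chil3 medians of the dividing barcodes are 7600 CPM in the library labelled WT and 24200 CPM in the KO library, and those of Camp, Ltf and Ngp, which the rule used, are shown as description.

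Primary granule genes were low in members by the rule, and the KO library had somewhat more of some. Elane was at 88.8, 106 and 147 CPM and Mpo, myeloperoxidase, at 157, 133 and 203 CPM, neither of them called. Prtn3 was at 234, 241 and 365 CPM and was called above, barely past the fold, whereas in non-dividing barcodes it was at 162, 119 and 69 CPM, with the KO library lowest. Among members of 10000 to 30000 UMIs the direction of Prtn3 turned, with log2 ratios of -0.84 and -0.32, against 0.64 and 0.60 over all members. Of 9 such genes 1 was called above and 1 below, against 2.55% and 7.03% of all genes. The one above is Prtn3, a gene of the rule and so not a finding. Nkg7, the one below, was at 16.7, 13.6 and 6.56 CPM. Late neutrophil genes had 3 of 16 called above, the rule gene Mmp8 among them, and 1 below. Mmp8, a collagenase that the rule capped, was at 141, 179 and 605 CPM. Il1r2, a decoy receptor of interleukin 1, was at 21.2, 58.4 and 104 CPM and Fpr2, a receptor of formyl peptides, at 488, 672 and 1029 CPM. Padi4, the enzyme that citrullinates histones in extracellular traps, was at 192, 173 and 86.1 CPM, lower in the KO library. Mmp9, next to Mmp8 in the rule, ran the other way without being called, at 344, 246 and 179 CPM.

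Cytosolic proteins of granulocytes had 3 of 11 genes called above and none below, against 2.55% and 7.03% of all genes. Ifitm6, an interferon-induced membrane protein gene, was at 1074, 2443 and 4380 CPM, with the library labelled Het between the others. Wfdc21 was at 1374, 1335 and 2414 CPM and S100a6 at 47.3, 36 and 73.7 CPM, both higher in the KO library alone. The most abundant members of the list were close between libraries: S100a8 was at 97789, 90161 and 99365 CPM and S100a9, its partner in calprotectin, at 86053, 92233 and 91914 CPM. Median log2 ratios of the list were 0.45 and 0.44.

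Among genes with a mean of at least 50 CPM, those with the largest excess in the KO library came from several families. F13a1, the A subunit of clotting factor XIII, was at 33.9, 59.2 and 258 CPM. The KO level was 7.6 (7.1 to 8.14) times that labelled WT and 4.35 (4.18 to 4.53) times that labelled Het. In the thinned members, 5.83%, 10% and 48.7% had a UMI of F13a1, against 12.4%, 11.6% and 8.02% of B-lineage reference barcodes, whose thinned depth is the same. By this share the KO library alone was above that background. By CPM, where B-lineage reference barcodes had 26, 28.3 and 34 CPM, the members' levels were higher in all 3 libraries, by the least in that labelled WT. Glul, glutamine synthetase, was at 26.6, 56.9 and 179 CPM and Smpdl3a, a phosphodiesterase, at 33, 60.5 and 142 CPM. For both genes the library labelled Het lay between the others. Trp53inp1, a p53-induced protein, was at 33.7, 32.4 and 96.2 CPM, Serpine2, a protease inhibitor, at 29.7, 50.1 and 113 CPM, and Gpx3, a secreted glutathione peroxidase, at 34.2, 58.3 and 130 CPM. Trp53inp1 was alike in the other libraries, while Serpine2 and Gpx3 were intermediate in that labelled Het. Non-dividing barcodes, from the same libraries, had 32.8, 42.5 and 223 CPM of F13a1, 33.9, 59.9 and 173 CPM of Glul and 71.5, 68.1 and 224 CPM of Trp53inp1. There 196 of 6728 genes (2.91%) were called above and 716 (10.6%) below.

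F13a1 is also a monocyte gene. Of 9 monocyte markers tested 4 were called above and 1 below, against 2.55% and 7.03% of all genes. The summed monocyte list was at 299, 292 and 611 CPM in members and 12020, 12923 and 16767 CPM in monocyte reference barcodes. Of its genes, F13a1, Fn1 (fibronectin), Tgfbi and Pla2g7 were higher in the KO library. The defining markers Csf1r and Ccr2 were not: Csf1r was at 17.5, 13.1 and 9.41 CPM and Ccr2 at 17, 16.1 and 8.3 CPM. Fn1 was at 67.8, 74.4 and 154 CPM and Tgfbi at 26.4, 32.8 and 74.1 CPM. Members that also met the monocyte marker minimum numbered 26, 35 and 23. Without barcodes that held monocyte or B-lineage markers, a choice made after seeing the data, the log2 ratios of F13a1 were 3.82 and 2.96, against 2.92 and 2.12 with them.

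**Figure D4:**
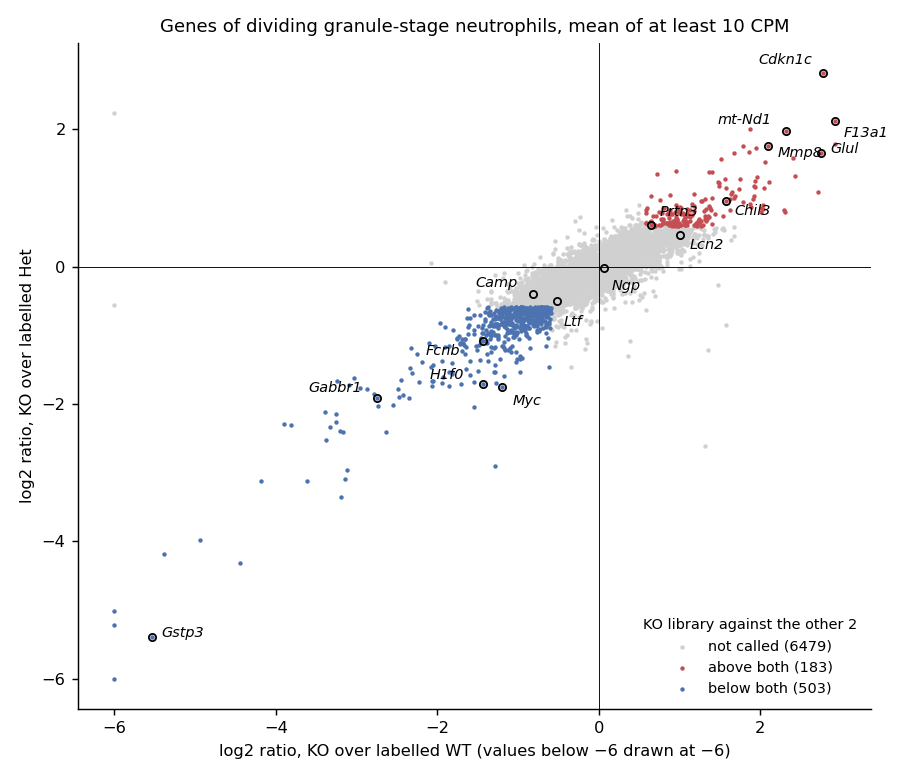
Log2 ratio of the KO library to the library labelled WT (x) and labelled Het (y) for each gene with a mean of at least 10 CPM in the members, without Pex2; red genes are called above both, blue below both, and ratios below -6 are drawn at -6. Named genes are ringed, with F13a1 and Cdkn1c at the upper right and Gstp3 and Gabbr1 at the lower left.

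RNA made from the mitochondrial genome was higher in the KO library. Of 13 mitochondrially encoded genes, 10 were called above and none below, against 2.55% of all genes, and their median log2 ratios were 1.02 and 1.03, with 0.03 between the other libraries. Their sum was 845, 811 and 1894 CPM. Mt-Nd1, a subunit of complex I, was at 25.4, 32.3 and 127 CPM, mt-Co1 of complex IV at 109, 111 and 289 CPM and mt-Atp6 of the ATP synthase at 90.1, 91.9 and 312 CPM. In each, the KO library stood apart from the others. Exceptions were mt-Nd5 at 69.4, 52.3 and 52.3 CPM and mt-Nd6, the one coded on the other strand, at 78.4, 24.2 and 20.8 CPM. The list was also higher in the KO library in monocyte reference barcodes, at 2199, 2320 and 5198 CPM, and in B-lineage reference barcodes, at 2859, 4431 and 9840 CPM, so it was not particular to members. Nuclear genes of oxidative phosphorylation did not share it: none of 51 was called in either direction, with medians of -0.08 and 0.06. Within barcodes of 10000 to 30000 UMIs the median to the library labelled WT was 0.42. The KO library was also the deepest, and the part of depth in the remaining difference was not tested.

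Genes that were lower in the KO library included several of signalling and metabolism. Gstp3 (chr19:4057477-4059569), a glutathione transferase of the pi class, was at 121, 111 and 2.62 CPM, 46.2-fold and 42.2-fold lower. It lies beside near-identical copies, so its probes could be shared and its value is uncertain. Gabbr1, a subunit of the receptor of GABA, was at 291, 162 and 43.3 CPM, 6.72-fold and 3.75-fold lower. H1f0, the linker histone of resting and maturing cells, was at 900, 1093 and 333 CPM, higher than in non-dividing barcodes (354, 488 and 145 CPM) in each library. Ly6g, the surface protein used to mark neutrophils, was at 168, 109 and 52 CPM, and Gpr84, a receptor of medium-chain fatty acids, at 86.6, 88 and 30.7 CPM. Plekhn1 was at 154, 138 and 49.3 CPM, Smim5 at 68.3, 68.1 and 22.7 CPM and Csta3, of the stefin family, at 88.4, 65.8 and 25 CPM. Tnfsf13b, which encodes the B-cell factor BAFF, was at 76.5, 70.9 and 27.7 CPM, and G0s2, a lipase inhibitor, at 88.4, 91.8 and 39.5 CPM. The library labelled Het had intermediate levels of Gabbr1, Ly6g and Csta3, and those of Gpr84, Smim5 and G0s2 were close to the levels labelled WT. In non-dividing barcodes Gstp3 was at 199, 185 and 3.07 CPM, Gabbr1 at 454, 267 and 78.3 CPM and Ly6g at 442, 275 and 111 CPM, again with the KO library lowest.

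Among members, which the rule had selected on Mki67 and Top2a, the machinery of division was close between libraries. Each member had to reach the same 400 CPM of these genes, so closeness of mitosis genes was in part set by the selection. The share of barcodes past that threshold did differ, as given above. None of 49 mitosis genes, which include Mki67 and Top2a, was called, with medians of -0.09 and -0.10. With the TMM scaling described at the end these were 0.14 and 0.08, so the sign turned. Of 41 DNA replication genes 2 were called below, against 7.03% of all genes. Uhrf1, which recruits the maintenance DNA methyltransferase, was at 337, 341 and 213 CPM, and Pold2, a subunit of DNA polymerase delta, at 29.2, 33.4 and 19 CPM. Rrm2, of ribonucleotide reductase, was at 1003, 766 and 739 CPM and Pcna, the replication clamp, at 360, 357 and 387 CPM, neither called. Of the rule genes, Mki67 was at 697, 972 and 1122 CPM and Top2a at 800, 826 and 703 CPM. They ran in different directions across libraries: 1529, 1808 and 1974 members would pass the threshold by Mki67 alone and 1360, 1414 and 1299 by Top2a alone. Histones and chromatin proteins had none of 23 called above and 1 below, Hist1h1d at 438, 382 and 253 CPM.

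Of 24 regulators of the G1 phase, 1 was called above and 2 below, against 2.55% and 7.03% of all genes. Cdkn1c, which encodes the inhibitor p57, was at 4.11, 4.03 and 28.4 CPM, 6.91-fold and 7.06-fold higher, from the same low level in the other libraries. In non-dividing barcodes it was at 2.19, 2.83 and 40.7 CPM. Cdkn1a, of the inhibitor p21, was at 80.2, 51.3 and 30.2 CPM, higher in members than in non-dividing barcodes (21.5, 11.9 and 7.86 CPM) with the library labelled Het between the others. Cdk4, the kinase of D-type cyclins, was at 31.5, 24.8 and 15.4 CPM. Ccnd3, the most abundant D cyclin of the list, was at 820, 961 and 738 CPM, Ccne1 at 39.1, 53 and 65.8 CPM and Cdkn2d at 395, 404 and 354 CPM, none called. Cdkn1a is also one of 12 p53 targets, of which 1 was called in each direction, with Trp53inp1 above.

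Granulocyte transcription factors had none of 20 called above and 5 below, against 2.55% and 7.03% of all genes. Their medians were -0.77 and -0.35, and -0.20 between the other libraries. Cebpe, the C/EBP factor that drives secondary granule genes, was at 1082, 1083 and 1034 CPM, alike in all libraries. Cebpb was at 390, 381 and 217 CPM and Ets1 at 399, 340 and 180 CPM, lower in the KO library alone. Fos and Junb, of AP-1, were at 21.4, 14.4 and 8.78 CPM and 24.1, 21.1 and 13.8 CPM. Myc was at 17.2, 25.3 and 7.49 CPM. With every barcode thinned to 5000 UMIs, its log2 ratios were -0.06 and -0.96, against -1.20 and -1.75. Cebpd was at 610, 445 and 297 CPM and Klf2 at 344, 200 and 157 CPM, lowest in the KO library without being called. Spi1, of PU.1, was at 450, 619 and 698 CPM and Ikzf1 at 459, 589 and 643 CPM, highest in the KO library and not called. Among 20 receptors, none was called above and 4 below: Gabbr1, Ly6g, Ccr2 and Csf2rb2, at 24.7, 31.9 and 12.2 CPM. Without barcodes that held monocyte or B-lineage markers, Ccr2, itself one of those markers, had a log2 ratio of 0.76 to the library labelled Het. Csf3r, the receptor of the neutrophil growth factor G-CSF, was at 271, 271 and 252 CPM, Cxcr4, which retains young cells, at 397, 423 and 423 CPM, and Cxcr2, which guides release, at 211, 265 and 317 CPM. The former pair was alike between libraries.

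Several lists of growth and metabolism had called genes on the low side, beside 7.03% of all genes called below and 2.55% above. By totals 504 genes were called below in all, and 239 with TMM factors, so counts below rest on the scaling. Genes of Myc, polyamine and ribosome synthesis had none of 18 called above and 8 below, with medians of -0.60 and -0.57. Nop2, a methyltransferase of ribosomal RNA, was at 24.2, 16.3 and 6.29 CPM, Ddx21, a nucleolar helicase, at 38.1, 38.5 and 16.9 CPM, and Odc1, of polyamine synthesis, at 45.9, 48.3 and 23.2 CPM. Abundant members of the list did not share this: Ncl, nucleolin, was at 77.1, 97.3 and 96.2 CPM, and with genes of at least 50 CPM alone the median to the library labelled WT was 0.41. ATF4 targets had none of 18 above and 5 below, among them Atf4 itself at 58.8, 56.9 and 25.6 CPM and the amino acid transporter Slc7a1 at 33, 42.9 and 17.1 CPM. Asns, asparagine synthetase and a standard ATF4 target, was at 101, 133 and 143 CPM, not called. Cholesterol synthesis genes had none of 16 above and 5 below, with medians of -0.83 and -0.25. Their regulator Srebf2 was at 132, 99 and 64.6 CPM, with the library labelled Het between the others. Glycolysis had 1 of 26 above and 4 below, with Hk3 at 104, 74.5 and 41.4 CPM and Pfkp at 43.4, 40.7 and 21.9 CPM. None of 27 genes of the endoplasmic reticulum was called.

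**Figure D5:**
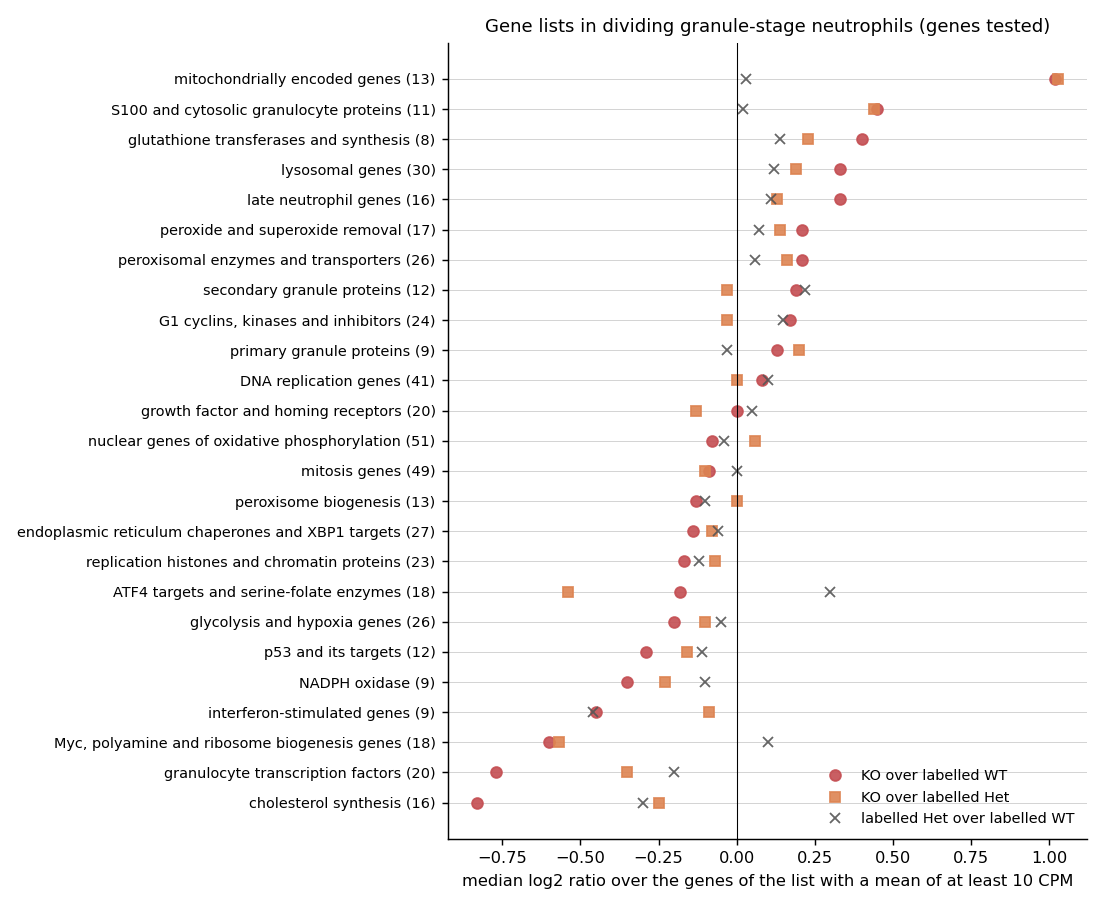
Median log2 ratio over the genes of each list with a mean of at least 10 CPM in the members (number of genes in brackets), for the KO library against that labelled WT (circles), that labelled Het (squares) and for labelled Het against labelled WT (crosses). Mitochondrially encoded genes stand at 1.02 and 1.03 with the cross at 0.03, and cholesterol synthesis and granulocyte transcription factors stand lowest against the library labelled WT, at -0.83 and -0.77.

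Peroxisome biogenesis genes were not called, whereas some peroxisomal enzymes were. None of the 13 peroxisome biogenesis genes tested was called in either direction, with medians of -0.13 and 0.00, and Pex5, the import receptor, was at 52.8, 46.2 and 48.3 CPM. Pex2 itself is not counted in this list. Of 26 peroxisomal enzymes and transporters 3 were called above and 1 below, against 2.55% and 7.03% of all genes. Their median log2 ratios were 0.21 and 0.16, while the summed list was lowest in the KO library, at 4268, 3603 and 3135 CPM. Crot, which prepares shortened fatty acids to leave peroxisomes, was at 18.9, 23.2 and 37.2 CPM, Phyh, of phytanic acid breakdown, at 17.1, 20 and 31.3 CPM, and Idh1 at 17.2, 19 and 32.9 CPM. Tysnd1, the protease that trims imported enzymes, was at 30.5, 22.2 and 14.5 CPM. Of 17 genes that remove peroxide and superoxide, Gpx3 was called above and Prdx2, a peroxiredoxin, below, at 14.7, 15.9 and 9.2 CPM. Among 8 genes of glutathione transfer and synthesis, Glul and Gclm, at 19, 32.8 and 50.4 CPM, were above and Gstp3 below. The NADPH oxidase, which makes superoxide, had 1 of 9 genes in each direction. Hvcn1, the proton channel that supports it, was the one below, at 163, 144 and 83.7 CPM. Cybb, its catalytic subunit, was at 1318, 1480 and 1480 CPM, alike in all. Lysosomal genes had 2 of 30 above and none below, among them Lamp2, a membrane protein of lysosomes, at 145, 177 and 278 CPM. Of 9 interferon-stimulated genes, 1 was called, Irf9 at 29.3, 17.3 and 9.62 CPM.

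Markers of other cells in the members differed between libraries, and some of them are called genes. B-lineage markers had all 9 tested genes called below, against 7.03% of all genes, and summed to 575, 313 and 96.1 CPM in members against 24473, 22717 and 29357 CPM in B-lineage reference barcodes, of which there were 1377, 1024 and 807. Ighm, among the largest deficits, was at 279, 154 and 55.3 CPM in members and 11477, 11150 and 17520 CPM in that reference. Dendritic cell markers had 4 of 5 called below and summed to 199, 85.7 and 26.4 CPM. H2-Ab1, an MHC class II chain, was at 26.1, 7.57 and 0.228 CPM. In the window of 10000 to 30000 UMIs its log2 ratio to the library labelled Het was 0.10, and so was the median of the dendritic list, so neither direction held there. Members that also met the B-lineage minimum numbered 7, 4 and 1. How much of these values is RNA of other cells, free or in the same droplet, was not tested. Erythroid markers summed to 53.8, 173 and 55 CPM and hepatocyte markers to 37.2, 40.8 and 48.6 CPM.

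Differences of Fcnb, Chil3 and Gstp3 were also present within parts of the stage. Members were split at the pooled medians of primary granule genes and of replication genes into 4 groups. The group low in both held 394, 567 and 723 members, and the group high in both 570, 542 and 572. Fcnb was at 1577, 1079 and 441 CPM in the former and 4162, 3528 and 1698 CPM in the latter. Chil3 was at 8587, 13440 and 24371 CPM in the former and 7200, 10936 and 22105 CPM in the latter, and Gstp3 at 108, 102 and 3.19 CPM and 127, 120 and 1.96 CPM. For these 3 genes the order of the libraries was the same in all 4 groups. Myc did not keep 1 order. It was at 3.05, 5.87 and 1.97 CPM in the group low in both and at 36.1, 40.3 and 9.95 CPM in the group high in both, but at 12.1, 44.6 and 15.2 CPM where primary granule genes were low and replication genes high, with the KO library above that labelled WT. In the remaining group it was at 7.38, 6.48 and 4.98 CPM. Mmp8 showed the opposite placing, with 183, 336 and 1091 CPM in the group low in both and 91.6, 83.5 and 244 CPM in the other.

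The split of calls between higher and lower genes rested on the scaling. With totals as scale, 26.6% of the called genes were above. TMM factors, which centre the bulk of genes, gave 503 above and 239 below (67.8% above), and median-of-ratios factors 484 and 251 (65.9%). They moved the median of all genes from -0.07 and -0.06 to 0.16 and 0.12, and to 0.15 and 0.10. All 183 genes called above by totals were also called by both, and 239 and 251 of the 504 called below were.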

How the data were processed

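Viable CD45+ cells of newborn mouse liver were fixed for the 10x Flex assay, per the labels' protocols. That assay reads genes through probe pairs. Per the submitters' processing notes, the authors made the deposited UMI counts with Cell Ranger 7.0.0 against mm10. Filters on barcodes and the probe set version were not stated. Each matrix holds raw counts of 19059 genes. Members totalled 26040315, 47449266 and 70132576 UMIs.

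UMIs were summed per library over members, as CPM with exact Poisson intervals. Ratios have exact conditional binomial intervals and log2 ratios had 0.5 UMIs added. Shares carry 95% Clopper-Pearson intervals. With 1 library per genotype nothing was tested. PCR and barcode errors are not covered. Genes needed a mean of at least 10 CPM. Named genes were the first 12 called in each direction with a mean of 50 CPM or more and at least 30 UMIs in 1 library, ranked by the smaller log2 ratio and without Pex2, Xist and Y-linked genes, and further the rule genes, markers and Pex2, up to 3 called genes per list and direction, all members at 50 CPM or more of the granule, transcription factor, receptor and G1 lists, and 8 per direction for division. Other genes of a list are named as examples, chosen after their values were seen. The members and the 35 lists were chosen with earlier results of these data known. Some list symbols, such as Ccnb1, Hmgb2 and Gapdh, had no unique match and were not used here. A few genes that the rule for names covers are not reported here. Where genes have near-identical copies or overlap, the probed counts are uncertain.

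Reference barcodes were B-lineage (Cd79a and Cd79b together at least 2000 CPM) and monocyte (Csf1r, Ms4a6c and Ccr2 together at least 600 CPM), both below the minimum of Camp, Ngp and Ltf, the latter also below the limits of Elane plus Prtn3 and of the B-lineage markers. Doublets were called with Scrublet (scanpy 1.11.5) and kept. TMM factors came from edgeR 4.0.16 and size factors from DESeq2 1.42.0 (R 4.3.3), used for scaling alone. Scripts ran in Python 3.11.15 with scipy 1.17.1, pandas 2.3.3 and numpy 2.4.6. Promoters came from RefSeq (GRCm38.p6) and gene positions from the GRCm38 annotation. On simulated data for this comparison (7170 genes past the minimum, counting error only), 50 of 50 genes raised 2-fold, 50 of 50 raised 1.6-fold, 47 of 50 lowered 2-fold and 33 of 50 lowered 1.6-fold were called, and 0 of 6975 unchanged genes.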

Additional observations from a re-analysis of the deposited data

Results flagged for a closer look

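Prtn3, the gene of proteinase 3, was higher in the KO library among dividing granule-stage neutrophils and lower among non-dividing ones. Among members its log2 ratio was 0.64 to the library labelled WT and 0.60 to that labelled Het, and it was at 234, 241 and 365 CPM. Among non-dividing barcodes it was at 162, 119 and 69 CPM. It drew attention because the 2 groups of barcodes lay on opposite sides of the other libraries. The difference was not tested, since each genotype had 1 library. The rule limits Prtn3 together with Elane, so its level in both groups is in part set by the selection. Within barcodes of 10000 to 30000 UMIs its log2 ratios in members were -0.84 and -0.32.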

How the results depend on the processing

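The ratio of KO to labelled WT in the share of all barcodes (1.32) was 1.12 with barcodes thinned to 5000 UMIs, 1.11 with limits of 2000 CPM on Elane plus Prtn3 and on Mmp8 plus Mmp9, 1.6 without the limit on Mmp8 plus Mmp9, and 0.467 within 10000 to 30000 UMIs. The ratio to labelled Het (1.02) was 0.875 with the lower limits, 1.21 without the Mmp8 plus Mmp9 limit and 0.598 in the depth window. Among granule-stage barcodes, KO to labelled WT (1.51) was 1.37 with the lower limits and 0.897 in the depth window, and KO to labelled Het (1.32) was 1.12 in the depth window and 1.18 without the Mmp8 plus Mmp9 limit. The depth window, the setting without that limit and the one without barcodes holding monocyte or B-lineage markers were added after seeing the data.

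Genes called above and below (183 and 504) numbered 503 and 239 with TMM factors, 484 and 251 with median-of-ratios factors, 321 and 1372 at a mean of 1 CPM, 74 and 123 at 50 CPM, 974 and 1698 at 1.2-fold, and 37 and 127 at 2-fold. The other 22 counts stayed within 1.5 times. Among list medians at least 0.2 from 0, in 1 direction against both libraries, and among called genes, reversals were the Myc list to labelled WT at 50 CPM (0.41), where fewer genes were tested, and, to labelled Het in the depth window, the dendritic list (0.10), H2-Ab1 (0.10) and H2-Eb1 (0.31). Prtn3 reversed there too (-0.84 and -0.32), and Ccr2 to labelled Het did (0.76) without barcodes holding monocyte or B-lineage markers. List medians nearer 0 also changed sign, such as those of mitosis genes (-0.09 and -0.10), which were 0.14 and 0.08 with TMM factors. The cause was not tested. Of the other list medians 685 moved by less than 0.1 on the log2 scale and 351 by more. Of the other ratios of named genes 1272 stayed within the counting interval and 803 did not.

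No paired analysis was possible because each genotype had 1 library, so there was no replicate to leave out. Depth limits the library labelled WT most: its members held the fewest UMIs.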
